A study of Mus musculus with 11 samples.

Results

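The regions described here were 2070 CpG-dense tiles of high methylation in ER-Hoxa9-Lys-GFP cells, a C57BL/6 mouse culture profiled by reduced representation bisulfite sequencing (RRBS). A tile is a window of 500 bp of the mm9 genome on chromosomes 1 to 19. A tile was a member when 25 or more CpG positions were listed in it, when each of the 11 libraries held 30 or more CpG-read observations (1 read at 1 CpG) in it, and when 70% or more of all its observations, pooled over the 11 libraries, were methylated. Of 47687 tiles with this coverage, 7588 were CpG-dense, and 2070 of these (27.3%) were members. The members were thus chosen by their pooled methylation level, so their height is a description and was given no test.

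The cells carry Hoxa9, a homeobox transcription factor that holds myeloid progenitors in an immature, dividing state, fused to a part of the estrogen receptor that binds the hormone. The fusion works while estradiol (E2) is in the medium, and Lys-GFP reports lysozyme, a gene of maturing myeloid cells. All groups were grown in medium with stem cell factor and differed only in E2. Cells kept in E2 throughout gave 1 library. Pairs of libraries came from cells that had been without E2 for 24, 40, 56 or 72 h and were then returned to it for 96, 80, 64 or 48 h, and a last pair came from cells without E2 for 120 h and no return. More hours without E2 thus went with fewer hours of return, and these effects cannot be told apart. The labels name 1 engineered culture and do not say that replicates were separate cultures, so the p-values measure only the spread between these libraries, which may be technical. The only values here that touch on the cell type are methylation levels at promoters of blood genes, given below. They cannot identify it, because CpG-dense gene starts are usually free of methylation in every tissue.

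RRBS enriches the CpG-rich fragments of the genome, and bisulfite turns unmethylated cytosines, but not methylated ones, into bases read as T. Vertebrate DNA is methylated at most CpGs, except in CpG islands, the CpG-dense stretches that cover many gene starts and are usually free of methylation in every tissue. A methylated CpG island at a gene start generally goes with a gene that is silent, and such islands are found at genes of other lineages, on imprinted alleles and widely in cultured and tumour cells.

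Gene starts were tied to tiles by sequence. The 300 bases around each start in RefSeq (GRCm38.p6 build) were placed where the spacing of their CpGs matched the listed mm9 positions at 8 or more CpGs and at exactly 1 place in the genome. Of 7139 promoters so placed, 18 fell on another chromosome than RefSeq gives and were dropped. Genes without a placed promoter were not assigned, and positions within exons, introns or UTRs were not analysed here.

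The sequences that carry the main contrasts are the 250 bases before 6 starts, read 5′ to 3′ on the gene's strand from RefSeq (GRCm38.p6). Capitals mark the CpGs listed in the deposited files. Peg12, an imprinted gene on chromosome 7, lies in the only member that passed a test between groups (mm9 chr7:69609001-69609500, gene on the minus strand). Cdkn2b (member chr4:88956501-88957000, minus strand) encodes an inhibitor of cyclin-dependent kinases, and the start of its neighbour Cdkn2a that was placed, in the unmethylated tile chr4:88940501-88941000 of the same strand, is shown beside it. Arhgef7, which encodes an activator of small GTPases, had a methylated start (chr8:11727501-11728000) and an unmethylated one (chr8:11758001-11758500), both on the plus strand. Wnt4 (chr4:136833001-136833500, plus strand) encodes a secreted signalling protein and shows a member richer in CpGs than most.
Peg12: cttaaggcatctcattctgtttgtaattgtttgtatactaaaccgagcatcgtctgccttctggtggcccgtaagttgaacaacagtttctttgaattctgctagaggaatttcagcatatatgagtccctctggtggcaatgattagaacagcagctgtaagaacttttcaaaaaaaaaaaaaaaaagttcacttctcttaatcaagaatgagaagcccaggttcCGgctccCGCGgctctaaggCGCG
Cdkn2b: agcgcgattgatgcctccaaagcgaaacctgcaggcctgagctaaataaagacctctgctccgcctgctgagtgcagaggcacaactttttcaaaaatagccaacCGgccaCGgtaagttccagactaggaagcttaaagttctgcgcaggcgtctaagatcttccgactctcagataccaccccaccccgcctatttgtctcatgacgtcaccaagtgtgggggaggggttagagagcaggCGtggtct
Cdkn2a: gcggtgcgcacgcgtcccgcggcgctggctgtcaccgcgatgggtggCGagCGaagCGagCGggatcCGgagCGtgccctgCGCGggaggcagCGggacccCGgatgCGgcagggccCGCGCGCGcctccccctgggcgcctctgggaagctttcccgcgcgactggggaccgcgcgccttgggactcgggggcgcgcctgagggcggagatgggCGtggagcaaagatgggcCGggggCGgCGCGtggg
Arhgef7, methylated start: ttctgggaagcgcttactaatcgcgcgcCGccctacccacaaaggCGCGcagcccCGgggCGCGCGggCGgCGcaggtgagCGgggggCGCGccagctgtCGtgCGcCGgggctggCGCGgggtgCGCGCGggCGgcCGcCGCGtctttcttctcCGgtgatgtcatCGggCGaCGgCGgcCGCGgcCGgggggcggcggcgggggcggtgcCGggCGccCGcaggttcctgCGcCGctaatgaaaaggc
Arhgef7, unmethylated start: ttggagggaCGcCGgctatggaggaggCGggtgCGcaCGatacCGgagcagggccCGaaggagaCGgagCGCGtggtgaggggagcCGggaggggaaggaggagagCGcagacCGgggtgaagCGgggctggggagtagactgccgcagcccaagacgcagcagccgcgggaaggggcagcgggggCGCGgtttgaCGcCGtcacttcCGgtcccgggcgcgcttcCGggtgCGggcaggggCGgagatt
Wnt4: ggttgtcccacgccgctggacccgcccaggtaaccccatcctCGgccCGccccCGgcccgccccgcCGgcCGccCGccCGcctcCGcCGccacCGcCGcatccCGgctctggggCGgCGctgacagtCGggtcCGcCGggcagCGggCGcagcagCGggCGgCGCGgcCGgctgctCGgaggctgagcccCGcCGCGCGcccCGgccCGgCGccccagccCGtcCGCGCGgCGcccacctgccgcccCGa
The Peg12 and Cdkn2b stretches have 8 and 12 CpGs in 250 bases, and the Wnt4 stretch has 44. Of these, 5, 3 and 38 were listed in the files.

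CpG-dense tiles fell into 2 classes with little between them. Of the 7588, 5009 (66.0%) were methylated below 10%, 509 lay between 10 and 70%, and 2070 were members. The members crowded at the upper end: their median level was 96.6%, 1832 (88.5%) stood at 90% or more, and 1407 (68.0%) at 95% or more. The lowest member was at 70.2% and the highest at 99.2%. By CpG number, the median was 95.8% in the 790 members with 25 to 29 CpG positions and 96.7% in the 814 with 30 to 39. It was 97.1% in the 339 with 40 to 49 and 97.2% in the 127 with more. Members were kept only at 70% or more, so these medians cannot show how methylation goes with density over all dense tiles.

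**Figure D1:**
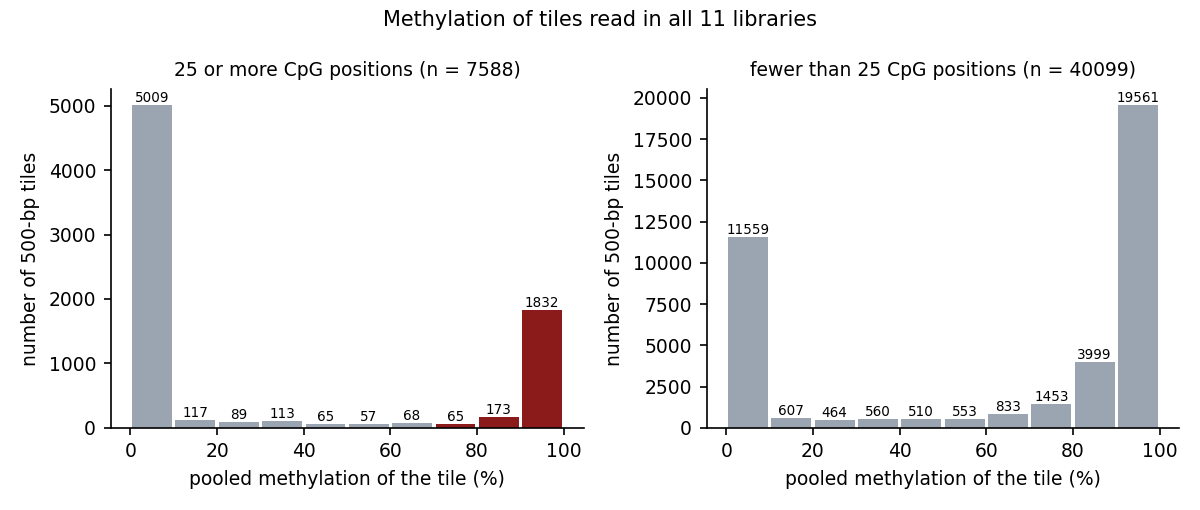
Number of 500-bp tiles (y axis) by pooled methylation in percent (x axis) for tiles with 25 or more CpG positions (left) and with fewer (right). Red bars are the members; 1832 of the dense tiles lie at 90% or more and 5009 under 10%.

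The 3 members with the most CpGs were chr4:57156001-57156500 with 84 positions at 97.9%, chr13:34436501-34437000 with 72 at 97.9% and chr12:109793001-109793500 with 70 at 97.9%. In none of these did a library fall below 92.6%. The highest pooled level was 99.2% at chr18:80519501-80520000, followed by 98.9% at chr1:180206001-180206500 and at chr8:24085501-24086000. At the other end, the members nearest the limit were chr17:24346001-24346500 at 70.2%, which holds the start of the axon-guidance gene Ntn3, chr7:103359001-103359500 at 70.5% and chr15:75578001-75578500 at 70.7%. The dense tiles just outside it were chr10:7310001-7310500 at 69.98%, chr2:152857501-152858000 at 69.9% and chr11:101888001-101888500 at 69.3%.

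A promoter was placed in 456 of the 2070 members (22.0%) and in 1941 of the 5009 unmethylated dense tiles (38.8%). In all, 485 genes had a promoter in a member, out of 2778 genes (17.5%) with one in any covered dense tile. The promoter windows in members had a median level of 96.7%, and 455 of 535 were at 90% or more. The gene groups below were drawn up with the gene names of the members in view, so their counts describe and test nothing, and 17.5% is the share to read them against.

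Among secreted signals, promoters of 4 of 5 Wnt ligands with a dense promoter tile lay in members: Wnt4 at 96.9%, Wnt5b at 97.0%, Wnt11 at 91.2% and Wnt3a at 88.0%. The remaining one, Wnt2b, was at 9.83%. All 4 fibroblast growth factors with such a tile were members, among them Fgf2 at 95.1%, Fgf4 at 97.0% and Fgf5 at 95.7%, as were the promoters of 2 of their receptors, Fgfr3 (94.1%) and Fgfr4 (97.8%). Of 4 genes for bone morphogenetic proteins and growth differentiation factors, 3 were in members (Bmp8b, Gdf7 and Gdf10), and Gdf11 was at 2.29%.

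Homeobox genes outside the Hox clusters, which encode transcription factors that lay out organs and body regions, had 17 of 24 promoters in members. They include Isl1 (95.9%), which acts in motor neuron and heart development, Msx1 (98.0%) of limb and craniofacial tissue, Six2 (97.6%) of the kidney, and Nkx6-1 (97.6%) of the pancreas and spinal cord. Of the other 7, Gbx2 was at 0.59% and Lhx2 at 32.0%.

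Of 12 receptors for neurotransmitters and neuropeptides, 11 were in members, such as Adrb1 (97.7%), a receptor for adrenaline and noradrenaline, Chrna7 (96.1%), a nicotinic receptor subunit, and Oprd1 (84.4%), an opioid receptor. The exception was Grik4, a glutamate receptor subunit, at 3.00%. Potassium channel genes counted 6 of 7 (Kcnc1 at 97.8%, Kcnma1 at 97.9%), calcium channel genes 5 of 7 (Cacna1c at 96.9%), and adenylate cyclases 3 of 4 (Adcy5 at 96.2%). Synaptotagmins, which sense calcium in vesicle release, counted 3 of 3 (Syt2, Syt6 and Syt9). Semaphorins and plexins, a family of guidance ligands and their receptors, counted 4 of 7 at a median promoter level of 35.4%, with Plxnc1, Sema4c and Sema7a outside the members.

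Of 37 listed growth regulators that are often methylated in tumours, 18 had a placed promoter and 11 had one in a dense tile. Of these 11 genes, 8 had a promoter in a member. They were Cdkn2b (98.5%), Gas1 (98.1%), Id4 (97.6%), the kinase gene Dapk1 (96.2%), Igfbp7 (96.3%), the repressor gene Hic1 (92.7%), the Wnt antagonist gene Sfrp2 (92.1%) and the metalloproteinase inhibitor gene Timp3 (79.9%). The other 3 were unmethylated: Cdkn2a at 0.51%, Runx3 at 0.15% and Socs3 at 0.26%.

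Cdkn2b and Cdkn2a, whose tiles start 16 kb apart, gave opposite readings in every library. Cdkn2b was at 100% in the E2 library on 13 observations. It was at 100% and 98.6% in the 24 h pair, 100% in both 40 h libraries, 95.8% and 100% in the 56 h pair, 100% in both 72 h libraries, and 100% and 91.9% in the 120 h pair. These rest on 333 observations in all, 10 to 69 a library, so a change of a few points was not detectable. The Cdkn2a start lay between 0% and 1.07% in the 11 libraries on 3942 observations, and the ranges of the neighbours did not come near each other.

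Housekeeping groups had no promoter in a member. None of 16 genes for ribosomal proteins, 12 for mitochondrial ribosomal proteins, 7 for the respiratory chain and ATP synthase and 5 for the proteasome was there, and the medians of these groups lay between 0.25% and 0.33%. The highest single one was Rpl31 at 18.5%. Genes of blood progenitors that should be open were low as well: Runx1 was at 0.21%, Myb at 0.42% and Kit, whose tile has fewer CpGs, at 0.35%. Of 16 such genes on the list, only these 3 had a placed promoter, 2 of them in a dense tile. Zinc finger genes named Zfp had 4 of 43 promoters in members.

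Germline genes, a textbook class of methylated promoters in body cells, had no promoter in a member, since none of those placed lay in a tile of 25 or more CpG positions. Of 46 on the list, 9 had a placed promoter, and these were at 91.5% (Dmrtb1) to 98.6% (Sycp1), in tiles of 10 to 23 CpG positions. Ddx4, a germ cell helicase, was at 97.4% in a tile of 23.

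**Figure D2:**
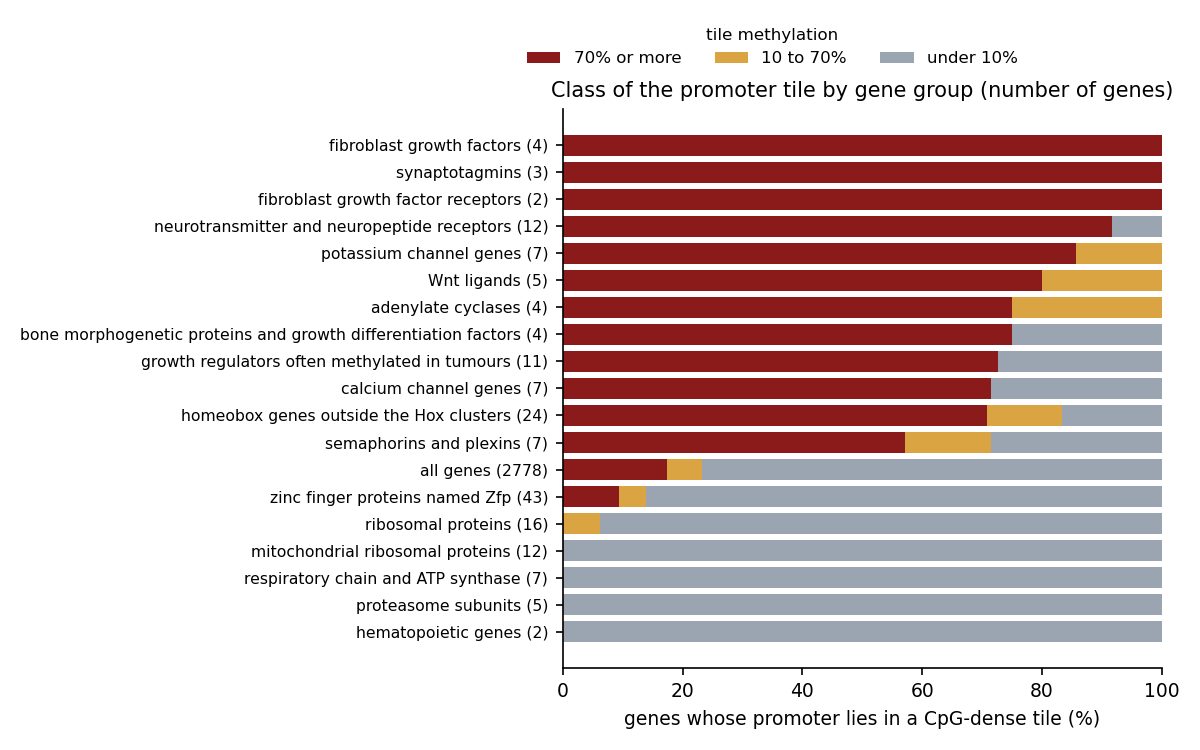
Share of genes (x axis, percent) whose promoter tile was at 70% or more (red), at 10 to 70% (yellow) or under 10% (grey), for each gene group (y axis, with the number of genes that have a promoter in a dense tile). Neurotransmitter receptors stand at 11 of 12, all genes at 485 of 2778 and ribosomal proteins at 0 of 16.

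Some genes had a methylated and an unmethylated start. This held for Abr, Arhgef7, C77080, Olfm1 and Prkar1b. The methylated start of Arhgef7 ranged from 95.7% to 100% over the libraries, and the unmethylated one, further along the gene, from 0% to 2.61%. Abr, a regulator of small GTPases, was at 98.8% at one start and 0.11% at another. Olfm1, which encodes a secreted protein of neurons, was at 62.2% and 0.78%, the first of these in a tile that reached 90.4% as a whole.

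**Figure D3:**
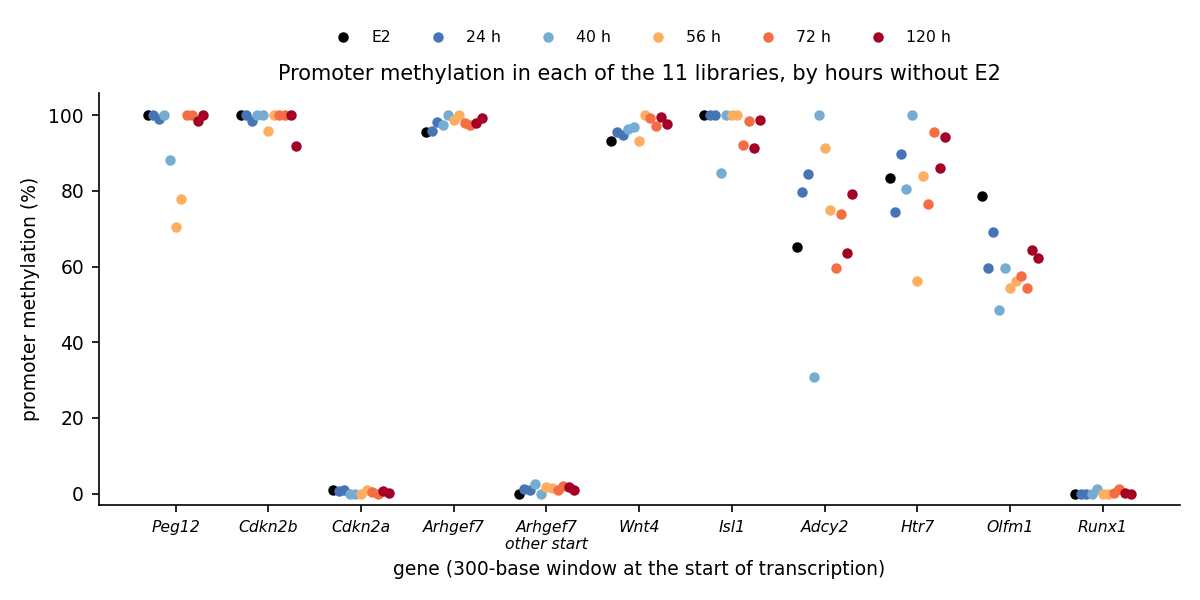
Methylation of 11 promoter windows (y axis, percent) in each library, with 1 point per library coloured by hours without E2 (E2 is the library kept in it, and 24 to 72 h libraries were returned to it). Cdkn2b, Arhgef7 (first start) and Wnt4 stay at 91.9% or more in all libraries, Cdkn2a, the other Arhgef7 start and Runx1 stay at 2.61% or less, and Adcy2 spans 30.8% to 100%.

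The member promoters resembled unmethylated ones in base composition but not in every motif. In 300 bases, the 535 member windows had a median GC content of 72.3% and 34 CpGs, and the 2358 windows in unmethylated dense tiles had 70.3% and 33. All 32851 promoters had 52.7% and 7, so the motif shares given for them come from windows of another base composition. Windows of the same gene can overlap and share bases. Motifs were searched on both strands, and CpG positions inside a motif count toward the CpG number. The letters CCGGAAG, which are known to be bound by ETS factors, were found in 32 member windows (5.98%) and in 574 unmethylated ones (24.3%), against 8.86% of all 32851 promoters. The GC box GGGCGG was as frequent in both, at 86.2% and 85.3%, against 35.7% of all promoters. The CCAAT box, with the letters CCAAT, was in 23.2% and 29.3%, against 37.4% of all. In the printed stretches, the ETS letters occur at 2 places before the unmethylated Arhgef7 start and at 0 before the methylated one, and at 0 in the others. A match is a description of letters, and binding was not measured.

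The members lay in methylated surroundings. Of 3306 adjoining tiles with 100 or more pooled observations, 3143 (95.1%) were at 70% or more, 146 at 10 to 70% and 17 (0.514%) under 10%. These include adjoining members, which are at 70% or more by rule. Of the 47687 covered tiles, 25013 less dense ones were also at 70% or more. The neighbours of those were not counted, so it is not known whether this is particular to the members. While 1293 members stood alone, 777 lay in 354 runs of adjoining members. The longest run, chr11:82744001-82747000, joined 6 tiles with 268 CpG positions at 95.01 to 98.35%. The next were chr2:146047001-146049000, with 4 tiles at 92.1 to 98.5%, and chr4:131476001-131478000, with 4 tiles at 96.8 to 98.2% and the start of the membrane protein gene Tmem200b.

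By chromosome, members made up between 15.9% (chromosome 17) and 38.7% (chromosome 12) of the dense tiles. Chromosome 12 held several dense clusters: all 11 dense tiles between 19 and 20 Mb were members, as were all 9 between 22 and 23 Mb and all 9 between 24 and 25 Mb. On chromosome 6, 10 of 11 dense tiles from 52 to 53 Mb were members, one with the start of the antisense gene Hoxa11os (97.5%). On chromosome 2, 8 of 9 from 74 to 75 Mb were members, one with the start of Hoxd11 (98.3%), a limb and trunk patterning gene. On chromosome 13, all 8 from 31 to 32 Mb were members, including the starts of the forkhead genes Foxc1 (98.5%) and Foxf2 (93.3%).

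Sharp borders were rare but clear. The member chr14:76815501-76816000 was at 81.5%, and the tile before it, with the start of Tsc22d1, was at 1.28% and never above 1.96% in a library. The member chr4:114580501-114581000 was at 97.0% beside a tile at 4.24%. In the member chr15:75578001-75578500 the change fell inside the tile and was graded. There, CpGs in the first part stood mostly above 90%. Further on, CpGs were at 42.3% (base 238), 61.2% (base 357), 25% (base 383) and 5.45% (base 397). The lowest CpG, at base 426, was at 1.30%, those after it were at 18.7 to 33.5%, and the next tile was at 0.896%.

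Within a member, CpGs mostly shared 1 level. Of 70478 CpGs listed in members, 49122 had 50 or more pooled reads, and 88.6% of these were at 90% or more and 1.12% under 50%. The SD between the CpGs of a member had a median of 3.75 points, and in 1226 members every such CpG was at 80% or more. In 242 members at least 1 CpG was under 50%. The widest spread, with an SD of 40.4 points, was in chr4:66065001-66065500, whose CpGs ranged from 6.38% to 100% around a tile level of 76.8%. The next were chr13:95639001-95639500, with an SD of 39.2 points over only 4 CpGs of that depth, and chr18:77099001-77099500, with 37.7.

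**Figure D4:**
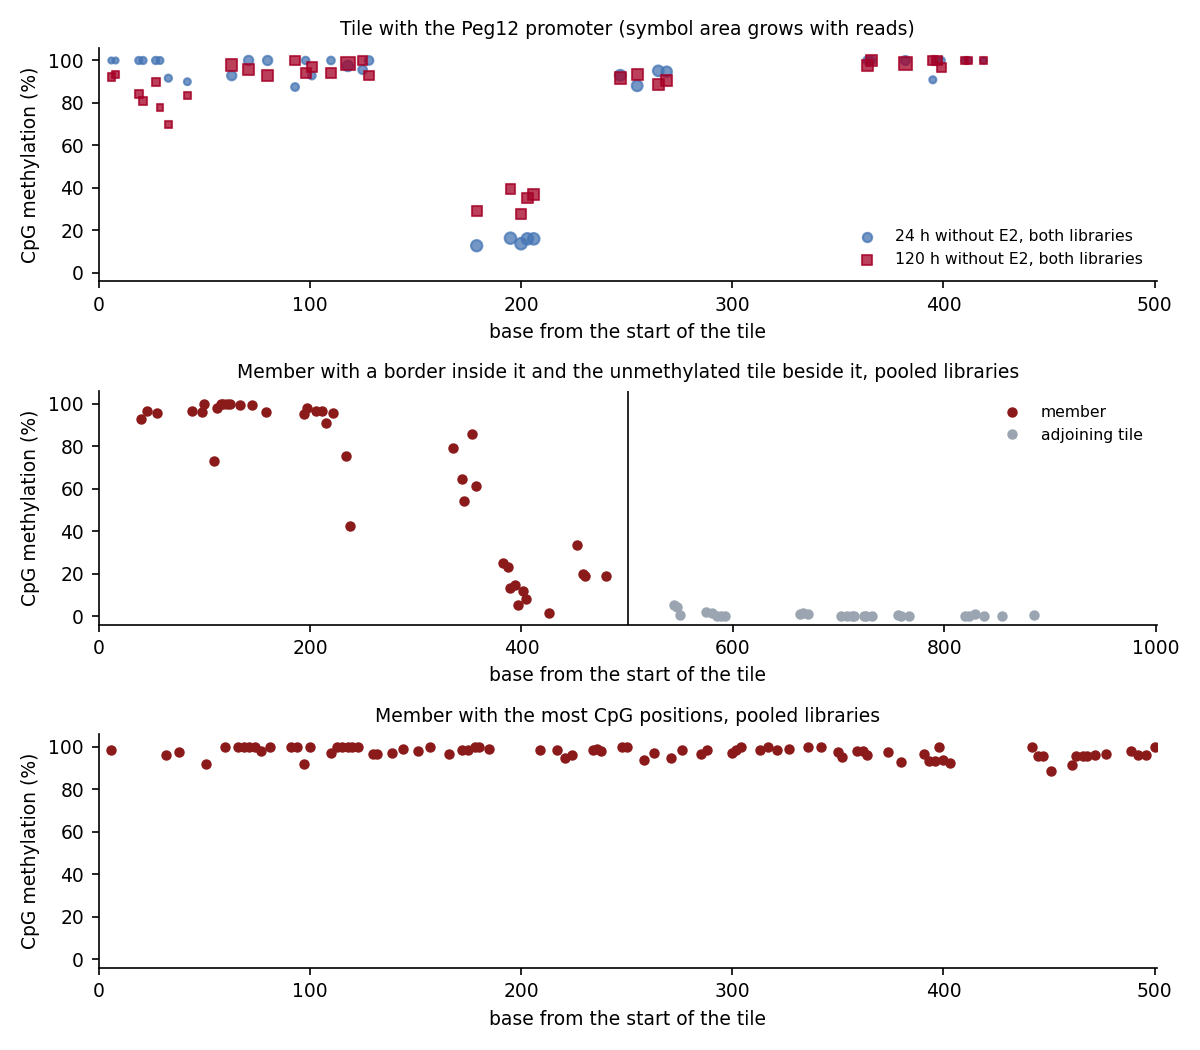
Methylation of single CpGs (y axis, percent) by base from the tile start (x axis). Top, the tile with the Peg12 promoter in the 24 h pair (blue circles) and the 120 h pair (red squares), where 5 CpGs sit at 39.4% or lower and the rest at 70% or more; middle, a chromosome 15 member and the unmethylated tile beside it; bottom, the member with 84 CpG positions, pooled over libraries.

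Depth was uneven between libraries. The libraries held 8234933 to 46899896 CpG-read observations, and the median member had 112 to 591 observations in a library. A member had a median of 8.34 reads per CpG and library. A read over several CpGs adds an observation at each of them, and PCR copies were not marked, so counting intervals would cover counting error only. The deepest member, chr7:7230501-7231000, had 105 reads per CpG and library and a level of 74.7%. The next deepest, chr1:173002501-173003000 and chr4:145427001-145427500, had 48.4 and 35.2 reads and levels of 84.5% and 92.7%.

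Most members varied little between the libraries. They were chosen by the level pooled over these same libraries, so a high level in each is partly set by the rule. In 1550 (74.9%) no library fell below 90%, and in 2009 none fell below 70%. The range over the 11 libraries had a median of 5.16 points and was under 10 points in 1767 (85.4%). It was not set beside the range of other highly methylated tiles. In 38 members the range was 20 points or more. The mean over the members was 95.06% in the E2 library, 94.87% ± 0.06 (SD, n = 2) in the 24 h pair, 94.88% ± 0.11 (SD, n = 2) in the 40 h pair, 94.80% ± 0.28 (SD, n = 2) in the 56 h pair, 94.46% ± 0.48 (SD, n = 2) in the 72 h pair and 94.74% ± 0.25 (SD, n = 2) in the 120 h pair. All libraries lay within 0.943 points of each other, the E2 library was the highest, and the pooled SD within groups was 0.28 points. By the mean over members, replicate 1 was lower than replicate 2 in all 5 pairs, by 0.09 to 0.69 points. By the median the 24 h pair went the other way, at 0.09 points, with 989 members lower and 1080 higher in replicate 1. The 40 h pair was near even, with 1037 lower and 1009 higher and a median of -0.02 points. The medians of the 56, 72 and 120 h pairs were -0.21, -0.49 and -0.28 points.

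The 72 h replicate 1 library stood apart. Its member mean of 94.12% was the lowest of the 11, it was also the lowest over tiles with fewer CpGs at 70% or more (92.4%, against 92.6 to 93.1% in the others), and it was the highest over the unmethylated dense tiles (0.778%, against 0.671 to 0.763%). The part of these library-wide shifts in the comparisons below was not tested. Values without this library are given where it matters.

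**Figure D5:**
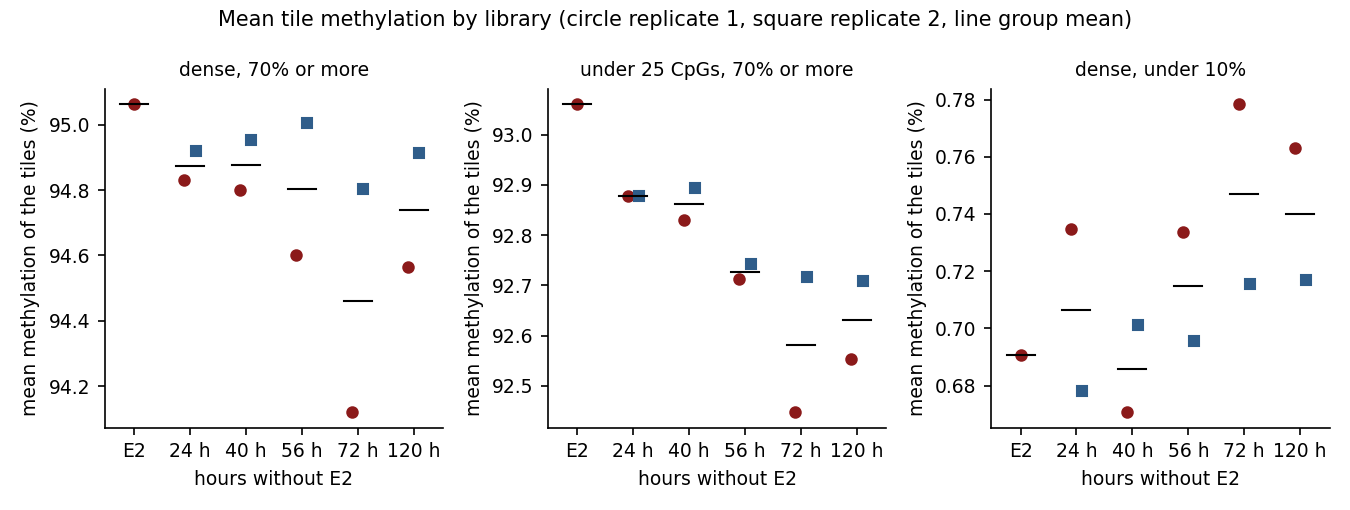
Mean methylation (y axis, percent, not starting at 0) of members, of less dense tiles at 70% or more and of unmethylated dense tiles, by hours without E2 (x axis). Points are libraries, lines are group means, and the 72 h replicate 1 library is lowest in the first 2 panels and highest in the third.

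In the members named here for the largest range over libraries, the 40 h pair gave both the lowest and the highest value. That pair had among the fewest reads, and the part of depth was not tested. In other wide members the extremes lay elsewhere, as in chr7:103359001-103359500, at 62.4% and 83.8% in the 56 h pair. In chr3:68297501-68298000 the 40 h libraries were at 62.5% on 88 observations and 100% on 159, and the other 9 libraries lay between 81.7% and 97.1%. In chr11:114653001-114653500 the same pair was at 53.4% and 89.4%. In chr13:69138001-69138500, which holds the start of the adenylate cyclase gene Adcy2, it was at 63.5% and 98.9%, with 83.2 to 96.3% in the rest.

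Each comparison was tested tile by tile over all 47613 tiles that had both kinds of read, with a quasi-binomial model of the read counts, and p-values were adjusted over all of them by Benjamini-Hochberg with a threshold of 0.05. The comparison of 120 h with the E2 library asks what 5 days without the hormone change. It called 0 members and 0% of all tiles. At an unadjusted p under 0.05 there were 160 members (7.73%), against a background of 5.23%. With limma on arcsine square-root levels the order turned, at 4.78% of members and 6.34% of all tiles, and the members' share was below that of all tiles in the other 4 comparisons too. The median difference of the members was -0.38 points, against 0 over all tiles and -0.56 over the 25013 tiles at 70% or more with fewer CpGs. It was -0.20 points without the 120 h replicate 1 library. Of the members, 1954 (94.4%) moved by less than 5 points, and the 95% interval of a member reached a median of 3.5 points either way. With 1 library kept in E2, its spread was taken to be that of the other groups.

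The 120 h group against the 24 h group, which had the longest return to E2, gave 1 member past the threshold, against 0.0273% of all tiles. The median difference of the members was -0.19 points, against -0.004 over all tiles and -0.24 over the less dense tiles at 70% or more, and it was -0.0013 points without the 120 h replicate 1 library. Of the members, 2034 (98.3%) moved by less than 5 points. The median interval reached 2.1 points either way. At an unadjusted p under 0.05 there were 162 members (7.83%), against a background of 7.09%.

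The member that passed was the Peg12 tile, chr7:69609001-69609500, with 36 CpG positions and a pooled level of 79.3%. Peg12 is expressed from the paternal allele in the region of the Prader-Willi genes. The tile was at 75.3% and 70.8% in the 24 h pair and at 87.6% and 81.7% in the 120 h pair. It was at 76.6% in E2, 83.5% and 83.2% at 40 h, 67.3% and 72.0% at 56 h, and 80.5% in both 72 h libraries. The 120 h and 24 h pairs did not overlap, but this was common in that comparison. It held for 273 members (13.2%) that were higher at 120 h and for 404 (19.5%) that were lower. Over all 47613 tiles it held for 7614 and 7820. In the Peg12 tile the 56 h pair had the lowest mean. With every CpG weighted alike the 56 h libraries were at 70.6% and 79.0%, and the lowest mean was that of the 24 h pair, at 68.6% and 74.8%. The difference of 11.5 points had a 95% interval of 4.7 points either way and an adjusted p of 0.0474. It passed in 3 of 18 other settings with a test, with adjusted p from 0.0384 to 1, and in a fit of the compared groups alone the adjusted p was 0.904.

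Single CpGs of this tile differed widely. At bases 179 to 206 of the tile, 5 CpGs were at 24.2% in the pooled libraries, and the other 31 were at 95.6%. These 5, chosen after their values were seen, were at 2.22% (45 observations) and 17.8% (202) in the 24 h pair and at 39.6% (101) and 25.7% (74) in the 120 h pair. The 31 others were at 94.7% and 96.8% in the 24 h pair and at 95.6% and 93.3% in the 120 h pair, so they overlapped. The 5 low CpGs also made up more of the observations in the 24 h pair (20.9% and 32.9%) than in the 120 h pair (14.3% and 17.2%). With every CpG weighted alike in all libraries, over the 22 CpGs read in each, the difference was 5.80 points in place of 11.5. The Peg12 promoter window, at the far end of the tile, was at 100% and 98.9% in the 24 h pair and at 98.4% and 100% in the 120 h pair.

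The 72 h group against the 24 h group compares a longer with a shorter absence followed by return. It called 0 members, against 0.0126% of all tiles. The median difference of the members was -0.34 points, against -0.02 over all tiles and -0.27 over the less dense tiles at 70% or more, but -0.03 points without the 72 h replicate 1 library. At an unadjusted p under 0.05 there were 193 members (9.32%), against a background of 7.09%. The smallest p was that of chr8:81553001-81553500, at 97.1% and 98.1% in the 24 h pair and 90.6% and 91.7% in the 72 h pair, with an adjusted p of 0.183. In the 120 h pair that tile stood at 96.4% and 96.2%, between the other two groups. The tiles chr2:157250001-157250500 and chr10:70622001-70622500 were higher by 7.16 and 8.88 points in the 72 h pair, with adjusted p of 0.439 and 0.564, and chr18:75979501-75980000 was lower by 4.33 points, with 0.231.

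The 72 h group against the E2 library called 0 members, against 0.0021% of all tiles. The median difference of the members was -0.55 points, against 0 over all tiles and -0.59 over the less dense tiles at 70% or more, and it was -0.19 points without the 72 h replicate 1 library. At an unadjusted p under 0.05 there were 170 members (8.21%), against a background of 5.48%. Both comparisons with the E2 library share that library, and the tile of smallest p among members that were lower was the same in both, chr19:7240001-7240500. The E2 library was at 90.4% there, and the other 10 libraries lay between 74.2% and 79.3% without overlap. A pair wholly below the 1 E2 library was common. For 120 h it held for 899 members (43.4%) and for 38.5% of all tiles, and for 72 h for 942 members (45.5%) and 37.5% of all tiles. In the chromosome 19 tile the difference was -12.6 points for 120 h, with an adjusted p of 0.437, and -14.4 points for 72 h, with an adjusted p of 0.367. With every CpG weighted alike the first of these was -12.6 points. In the other direction, chr5:143026501-143027000 was at 66.7% in E2 on 123 observations and at 87.2% and 85.1% at 120 h, with an adjusted p of 0.492. The tile chr14:21514501-21515000 was at 99.7% in E2 and at 95.3% and 96.1% at 120 h, with an adjusted p of 0.858. The tile chr10:121484501-121485000 was at 86.0% in E2 and at 96.6% and 96.1% at 120 h, with the same adjusted p. For 72 h against E2, the members higher with the smallest p were chr12:24781501-24782000, by 11.6 points, and chr10:72562501-72563000, by 4.71 points, each with an adjusted p of 0.849. None of these passed the threshold.

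Over the 8 returned libraries, the trend with hours of absence called 0 members, against 0.0042% of all tiles. The median slope of the members was -0.165 points per 24 h, against -0.015 over all tiles and -0.131 over the less dense tiles at 70% or more. Leaving out single libraries moved it between -0.225 and -0.046, the latter without the 72 h replicate 1 library. At an unadjusted p under 0.05 there were 141 members (6.81%), against a background of 5.41%. The members of smallest p were chr18:75979501-75980000 and chr8:81553001-81553500 with slopes of -2.13 and -3.10 points per 24 h, and chr12:22686001-22686500 and chr4:123341001-123341500 with 3.41 and 1.59, all with an adjusted p of 0.881.

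The median dispersion of the group fit, in which several observations can come from 1 read, was 1.50 in members and 1.07 over all tiles. It was 1.04 in unmethylated dense tiles, 3.12 in dense tiles at 10 to 70% and 1.09 in less dense tiles at 70% or more. Members with a placed promoter and those without were set side by side, with no test of the difference. For 120 h against E2 the median difference was -0.085 points in the 456 with a promoter, of which 238 were lower, and -0.42 in the 1614 without, of which 976 were lower. For 72 h against E2 it was -0.32 and -0.61 points. For 120 h against the returned 24 h group the median difference was -0.26 points with a promoter and -0.16 without, and 97.8% and 98.4% differed by less than 5 points.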

How the data were processed

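RRBS was measured in 11 libraries of mouse ER-Hoxa9-Lys-GFP cells. The deposited tables hold, per CpG, the count of methylated reads and of all reads, as a text fraction per CpG, and a score. The deposited score equalled 1000 times the methylated share in 100% of lines and was not used. Per the submitters' processing notes the build was mm9. The aligner, caller, trimming and duplicate handling are not given in the sources used here, so their effect on the levels is unknown.

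Counts were summed into tiles and fitted with a quasi-binomial logistic model, 1 mean per group over all 11 libraries (for the trend, a slope over the 8 returned ones), with a deviance F test on both sides. Dispersions were shrunk across tiles as in limma 3.58.1 (R 4.3.3) and set to 1 at least. The group comparisons had 5 residual and 11.4 prior degrees of freedom, and the trend had 3.81 prior ones. The script was tested on simulated data. P-values were adjusted over all 47613 tiles, after 74 with reads of 1 kind were left out. Analyses ran in Python 3.11.15 with numpy 2.4.6, scipy 1.17.1 and pandas 2.3.3.

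Of 32851 promoter windows in the RefSeq table, 15982 had enough CpGs to search, 7139 were placed at a single position and 239 matched several. Chromosome 18 has no window in the table.

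Named tiles are members past the threshold, or else the 2 of smallest p each way, and members extreme in CpG number, level, range over libraries, spread between CpGs, depth and run length. Tiles were named by a gene where its promoter was placed. Members, gene groups and lists were chosen with earlier results of these data known. Alternatives are listed in the closing section.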

Additional observations from a re-analysis of the deposited data

How the results depend on the processing

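No alternative reversed the sign of a median member difference or of the Peg12 difference, and the cause was not tested where values moved. Settings with a tile minimum of 50 observations called 2 tiles for 120 h against 24 h, 1 for 72 h against 24 h, 0 for 72 h against E2, 1 for the trend and 0 members. A minimum of 100, limma on arcsine square-root levels (the zero variances offset by limma) and, for the 4 group comparisons, a fit of the compared groups alone called 0 tiles and 0 members in each of these. For 120 h against E2, 1 tile was called with no lower limit on the dispersion and 1 without the deepest 0.1% of CpGs, in place of 0. At an unadjusted p under 0.05, limma had 99 members (4.78%, against 6.34% of all tiles) for 120 h against E2, 16 (0.773%, against 1.70%) for 120 h against 24 h, 35 (1.69%, against 2.32%) for 72 h against 24 h, 116 (5.60%, against 6.89%) for 72 h against E2 and 33 (1.59%, against 1.82%) for the trend, so the members' share was the lower in all 5, where the quasi-binomial test had it higher. The labels do not pair replicate numbers. The correlation of same-numbered deviations over 10 pairs lay between -0.015 and 0.025 over all tiles and between -0.051 and 0.107 over the members. No pair was over 0.1 over all tiles, and only the highest was over the members. With the replicate block 0 tiles and 0 members were called in every comparison.

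Leaving out each library in turn gave 0 to 13 tiles and 0 to 1 members for 120 h against 24 h, 0 to 6 tiles for 72 h against 24 h, 0 tiles for 72 h against E2 and 0 to 1 for the trend. The Peg12 tile passed without the E2 library and failed without any other. The median member difference of 72 h against 24 h ran from -0.47 to -0.030 points, and that of 72 h against E2 from -0.71 to -0.19, the smaller in each case without 72 h replicate 1. A rule of 30 or more CpG positions gave 1280 members at a mean of 95.1%, and 20 or more gave 3721 at 94.4%. A limit of 80% gave a mean of 95.4%, and 60% gave 93.8%. The median interval of a member reached 2.1 to 3.7 points either way, so changes smaller than this were not detectable at this depth in most members. Larger changes could fail too, since this interval is for a single tile and the p-values were adjusted over all tiles. For 72 h against 24 h, chr10:70622001-70622500 differed by 8.88 points with an interval of 4.12 either way, and its adjusted p was 0.564.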
